A study of Vigna subterranea with 10 samples.

Results

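The leaves of bambara groundnut (Vigna subterranea), an African grain legume of warm, dry soils, were compared at 23 °C, the sub-optimal temperature of the study, and at 27 °C, its optimal temperature. The transcripts described are the 7017 of 36578 deposited probe sets (19.2%) whose mean log2 value over the 9 RNA arrays was at least 10. A probe set is a group of short DNA probes on the array that reads 1 transcript. The array was made for soybean, a related legume, so each probe set carries a soybean identity and may bind several members of a gene family in bambara groundnut. The paper counts more probe sets on the whole array than the deposited table holds.

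Plants of the landrace S19-3 grew in soil columns in controlled rooms under 1 day length, first at 27 °C, then at 23 °C and last at 18 °C. Fully expanded leaflets of 3 plants were taken at each temperature, which gave 3 arrays at 18 °C, 3 at 23 °C and 3 at 27 °C. The labels name no plants kept at 27 °C throughout, so temperature, the order of sampling, leaf age and the earlier removal of leaflets cannot be told apart. The same 3 plants were sampled at each temperature, but the labels do not say which plant gave which array, and the p-values measure the spread between these leaflets.

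Leaves capture light in chloroplasts, turn the fixed carbon into starch and sucrose, and recycle the phosphate that sugar phosphates hold on to. Cooling slows enzymes and membrane transport more than it slows light absorption, and plants of warm climates meet this above freezing point, without ice. The circadian clock, the phosphate economy of the cell, pigment synthesis and membrane channels are all known to respond to temperature in leaves.

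The tissue label was checked against leaf genes, chlorophyll-binding proteins, photosystem subunits and Rubisco activase among them. Of 33 leaf marker probe sets on the array 26 were at a mean of at least 10, and 21 of them at 14 or more. Their summed level, taken as the mean log2 value of the list, ranged from 16.12 to 16.17 in the 23 °C leaflets, against 16.32 to 16.34 in the 27 °C leaflets, so the groups did not overlap. Markers of nodule, seed, flower and meristem reached a mean of 10 for 8 of 57 probe sets, with a list mean of 11.89 to 12.78 at 23 °C and 11.75 to 12.27 at 27 °C. Genes of phloem and epidermis reached it for 3 of 17, with a list mean of 11.01 to 11.27 at 23 °C and 10.41 to 10.65 at 27 °C. The part of these shifts in the results below was not tested. In whole leaflets, fewer cells of a type and less RNA per cell cannot be told apart.

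The 6 arrays were alike in scale, with medians over all probe sets of 8.05 to 8.08 at 23 °C and 8.05 to 8.11 at 27 °C. Over the 7017 transcripts, arrays of the same temperature correlated at r = 0.91 to 0.94 and arrays of different temperature at 0.87 to 0.91. The main axis of variation, with 41.98% of the variance, separated the temperatures, and the next, with 20.02%, set 23 °C replicate 1 apart from 23 °C replicate 2. The deposited table holds 1434 values below 0 and 1312 above 16, the log2 limit of a 16-bit scan, so a step after the usual normalization is unknown. The differences below are therefore differences of deposited log2 values and may not equal true log2 fold changes.

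Of the 7017 transcripts 255 (3.63%) differed between 23 °C and 27 °C at an adjusted p under 0.05 in limma fitted to all 9 arrays, 151 of them higher at 23 °C (2.15%) and 104 lower (1.48%). These are the transcripts of which "rose" or "fell" is written. Over all 36578 probe sets of the array 284 (0.776%) passed, 159 of them higher at 23 °C (0.435%) and 125 lower (0.342%). At an unadjusted p under 0.05 there were 1573 of the 7017 (22.4%), against 9.42% of all probe sets, and the values of the 2 temperatures did not overlap in 1978 (28.2%), against 14.8% of all. The calls depended on how the variance was modelled: with 1 common prior variance in place of a variance that follows the level, limma called 0 of the 7017 (0%) and 0.00273% of all probe sets, and the methods' t-test with Benjamini-Hochberg adjustment also called 0. In the 9 fits that each left out 1 array, 70 of the 255 calls held throughout, 32 of them named transcripts, and 15 held in none. The lowest count of calls was 85, without 27 °C replicate 2. In none of the 255 calls did the values of the 2 temperatures overlap, so leaving out 1 array could not change a sign.

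The median difference over all 7017 transcripts was 0.01, with a 5th percentile of -0.86 and a 95th of 0.91. Differences above 1 in size, a 2-fold change on this scale, were found for 533 transcripts (7.60%), of which 199 were called, and above 3 for 12, of which 7 were called. Calls that rose had a median difference of 1.42 and calls that fell one of -1.31, and the smallest called difference was 0.38. The median standard error was 0.25, and the 95% interval lay within 1 of 0 for 4403 transcripts (62.7%), so for these a change of over 2-fold in the deposited values lies outside the interval. Among the 668 transcripts with a mean of 14 or more, 49 rose and 14 fell. Among the 2922 between 10 and 11, 12 rose and 27 fell. Replicates spread less at high levels, with a median replicate SD of 0.18 at 14 to 20 against 0.34 at 10 to 12.

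**Figure D1:**
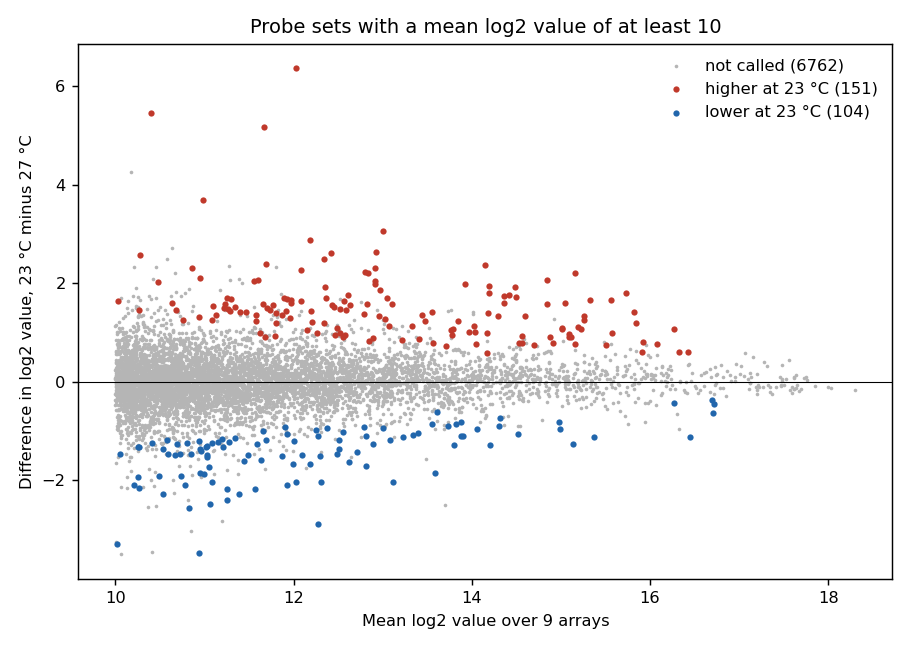
Each point is 1 of the 7017 transcripts, with its mean log2 value over the 9 RNA arrays on the x axis and its fitted log2 difference, 23 °C minus 27 °C, on the y axis. The 151 that rose and the 104 that fell are coloured, and rises outnumber falls at the bright end, with 49 rises and 14 falls at a mean of 14 or more.

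The level of 10 that defines these transcripts is not a natural border. The probe set just inside it, an oxysterol-binding protein, had a difference of 0.24 ± 0.44, and the unnamed probe set just outside it one of 0.03 ± 0.30 (standard errors here and below for every difference). Names come from the gene symbols of the array annotation and from the study's descriptions. The study described probe sets it had selected as changed on these same arrays, so its descriptions favour changed transcripts: 92 of the 466 described transcripts (19.7%) were called, against 11 of 332 with a symbol only (3.31%). The counts of the gene lists below are therefore not independent evidence, and the number of described members is given with each. Of the 103 named calls 69 fell into the 26 lists, which overlap in part.

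**Figure D2:**
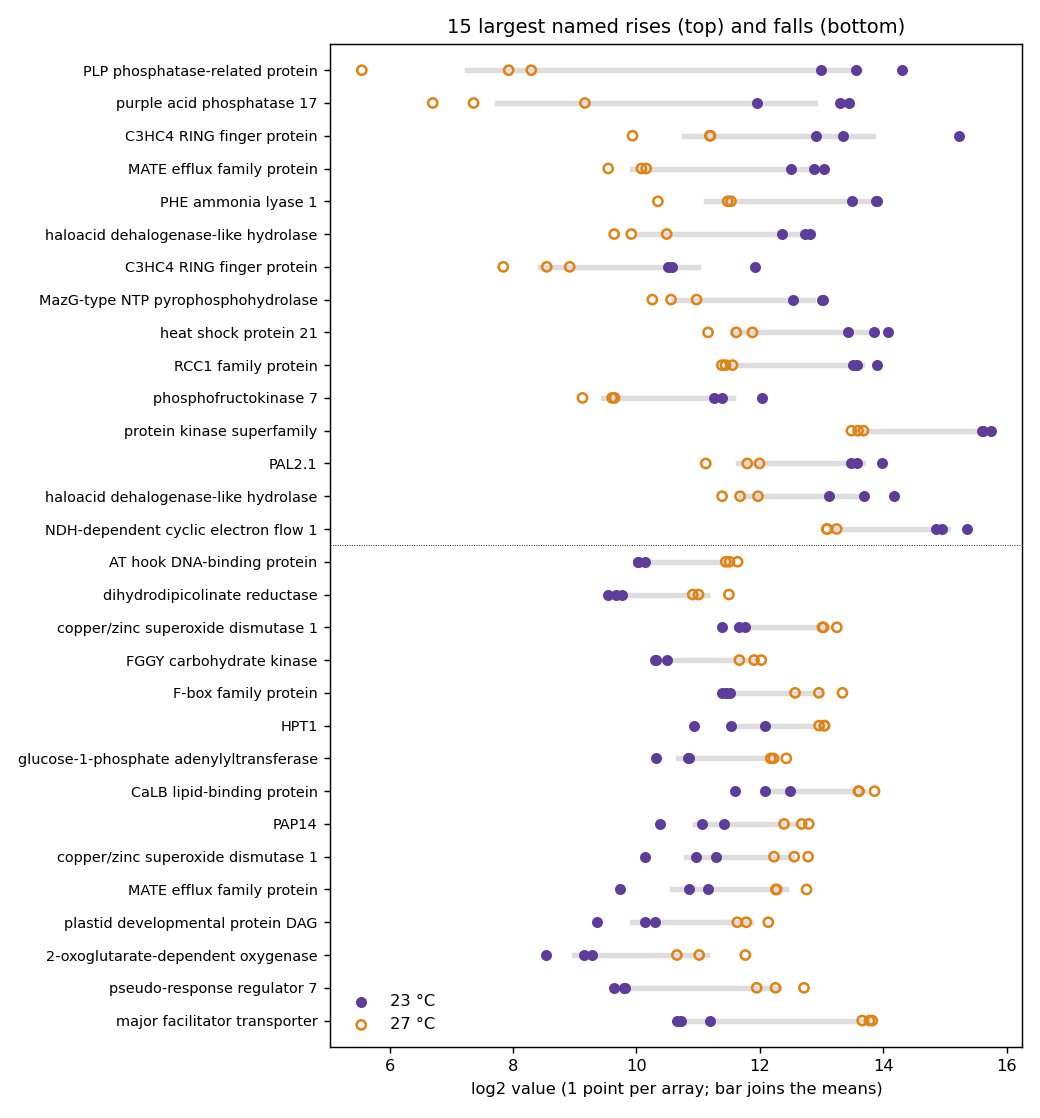
The named transcripts with the largest called differences are shown, each point the deposited log2 value of 1 leaflet at 23 °C or 27 °C, 3 per temperature. The pyridoxal phosphate phosphatase-related transcript and purple acid phosphatase 17 are set furthest apart in the deposited values, by 6.36 ± 0.60 and 5.16 ± 0.56, with 27 °C means (7.26 and 7.74) below the median of their arrays.

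Of 11 genes of phosphate supply, 5 of them described by the study, 3 rose and 1 fell, with a median difference of 0.32 beside 0.01 over all transcripts. The 6 members named by symbol only had 0 rises, 1 fall and a median of -0.42, so all the rises were of described members. The pyridoxal phosphate phosphatase-related transcript, matched by the study to a haloacid dehalogenase of common bean, read 14.30, 12.99 and 13.55 at 23 °C, against 5.55, 8.30 and 7.93 at 27 °C. It rose by 6.36 ± 0.60 (adjusted p = 0.00105), and as in all 255 calls the values of the temperatures did not overlap. Phosphatases of this class release phosphate from small phosphorylated compounds. Purple acid phosphatase 17, which phosphate-starved Arabidopsis plants make, had 13.29, 11.96 and 13.45 at 23 °C, against 6.70, 7.36 and 9.16 at 27 °C, a rise of 5.16 ± 0.56 (adjusted p = 0.00229). At 18 °C the pair averaged 15.22 ± 0.43 and 14.37 ± 0.35 (SD, n = 3), so the 23 °C values lay nearer to 18 °C than to 27 °C. Both calls held in all 9 leave-one-array fits. At 27 °C the pair averaged 7.26 ± 1.49 and 7.74 ± 1.28 (SD, n = 3), below the median of all probe sets on those arrays, where replicates spread widely (median replicate SD 1.48 at levels of 6 to 8). These readings were not shown to be above background, the transcripts reached a mean of 10 through the cooler temperatures, and the sizes of the rises are therefore loosely set.

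The mitochondrial phosphate carrier PHT3;3 rose by 0.95 ± 0.14 (adjusted p = 0.0125), with 14.33, 13.87 and 14.08 at 23 °C, against 13.17, 13.12 and 13.14 at 27 °C. PAP14, another purple acid phosphatase, named by its soybean symbol, went the other way. It had 11.41, 10.38 and 11.06 at 23 °C, against 12.39, 12.79 and 12.68 at 27 °C, a difference of -1.67 ± 0.24 (adjusted p = 0.0113). At 18 °C PAP14 averaged 12.98 ± 0.11, close to its 27 °C level and 2.03 ± 0.24 above its 23 °C level (adjusted p = 0.00337). SPX1, a sensor protein of phosphate status, had a difference of 1.27 ± 0.26 that missed the threshold (adjusted p = 0.0582). Without 27 °C replicate 2, or without 27 °C replicate 3, the list kept 2 rises and no fall.

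The clock and light-receptor list had 9 members, 6 of them described, of which 0 rose and 2 fell, and its median difference was 0.46. Pseudo-response regulator 7 (PRR7), a daytime repressor of the plant circadian clock, read 9.64, 9.82 and 9.79 at 23 °C, against 12.25, 11.95 and 12.72 at 27 °C. Its difference was -2.55 ± 0.24 (adjusted p = 0.000941), and the lowest 27 °C leaflet lay over 2 log2 units above the highest 23 °C leaflet. Cryptochrome 2, a blue-light receptor, had 13.30, 13.60 and 13.36 at 23 °C, against 14.87, 14.56 and 14.68 at 27 °C, a difference of -1.28 ± 0.14 (adjusted p = 0.00229). At 18 °C PRR7 averaged 10.43 ± 0.12 and cryptochrome 2 13.29 ± 0.13 (SD, n = 3). Both calls held in every leave-one-array fit.

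Other clock members gave positive differences that were not called. GIGANTEA, an evening clock protein, differed by 1.36 ± 0.28 (adjusted p = 0.0606), and the probe sets for ELF4-like 4, a relative of ELF4 of the evening complex, by 0.89 ± 0.29 and 0.58 ± 0.21. CRY2B, which carries a cryptochrome 2 symbol on another probe set, differed by 0.58 ± 0.17 and so did not follow the called cryptochrome 2 probe set. The sources used here do not give the time of day of sampling.

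The light-harvesting and photosystem transcripts were among the brightest of the leaf. Of 27 members, 21 described, 1 rose and 3 fell, and 7 of 27 differences were positive, with a median of -0.16. The 3 falls were small: -0.45 ± 0.09 for a light-harvesting chlorophyll-binding protein of photosystem II, -0.44 ± 0.08 for the minor antenna protein CP29, and -0.38 ± 0.07 for the photosystem I antenna protein LHCA3. CP29 showed the tight spread of these transcripts, with 16.41, 16.48 and 16.50 at 23 °C, against 16.85, 16.88 and 16.98 at 27 °C. It stood at 15.43 ± 0.06 at 18 °C, a further -1.04 ± 0.08 from 23 °C (adjusted p = 0.000429). At most 1 of the 3 falls was called in any leave-one-array fit, and none in 7 of the 9. These 3 are also the only calls among the 26 leaf markers. Another probe set for the photosystem II antenna protein, and the 3 probe sets for the chlorophyll-binding protein CAB3, were not called, at differences of -0.28, -0.17, 0.05 and 0.16.

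The rise in the photosystem list was that of NDF1, a chloroplast protein needed for the NAD(P)H dehydrogenase complex that returns electrons to plastoquinone. It read 14.86, 15.36 and 14.95 at 23 °C, against 13.25, 13.09 and 13.09 at 27 °C. It rose by 1.91 ± 0.15 (adjusted p = 0.000363) and the call held in all 9 fits. NDHK, a core subunit of that complex, rose by 1.06 ± 0.20 (adjusted p = 0.033), a call that 2 of the 9 leave-one-array fits kept. FtsH, a metalloprotease of the type that clears damaged photosystem II, rose by 0.74 ± 0.14 (adjusted p = 0.0354) and kept the call in 1 of 9. In the Calvin cycle and photorespiration list 1 of 10 members rose, 6 of them described, with a median of -0.04. That member was ALAAT2, an aminotransferase, at 16.60, 16.66 and 16.65 at 23 °C, against 16.08, 15.97 and 16.05 at 27 °C (0.60 ± 0.08, adjusted p = 0.00598). Rubisco activase, which keeps the carbon-fixing enzyme active, differed by -0.15 ± 0.09 and -0.17 ± 0.11 on its probe sets, neither called.

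In the chlorophyll, carotenoid and plastid maintenance list of 14 members, 12 described, 4 rose and 1 fell, while the median was -0.13. The H subunit of magnesium chelatase (CHLH), which puts magnesium into the chlorophyll precursor, had 16.41, 16.23 and 16.43 at 23 °C, against 14.64, 15.04 and 15.13 at 27 °C, a rise of 1.42 ± 0.13 (adjusted p = 0.000941). Phytoene synthase, the enzyme that commits carbon to carotenoids, had 16.13, 15.52 and 15.89 at 23 °C, against 14.13, 14.57 and 13.83 at 27 °C, a rise of 1.67 ± 0.21 (adjusted p = 0.00537). Zeta-carotene desaturase, a later step, rose by 0.77 ± 0.13, and the beta-carotene hydroxylase BCH3, which makes zeaxanthin, by 1.67 ± 0.28 (adjusted p = 0.019 and 0.0208).

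The remaining members of that list did not follow. A plastid protein of the DAG type, named after a snapdragon gene for chloroplast development, fell by 1.92 ± 0.28 (adjusted p = 0.0108), with 9.35, 10.14 and 10.30 at 23 °C, against 11.64, 11.78 and 12.14 at 27 °C. The porphyrin enzymes HEMB and HEMG differed by -0.10 ± 0.14 and -0.15 ± 0.28, and both ferrochelatase probe sets, of the haem branch, by -0.50 ± 0.17 and -0.36 ± 0.23, none of them called. CHLH and phytoene synthase were called in all 9 leave-one-array fits and zeta-carotene desaturase and BCH3 in 4 each, while the list kept 2 rises and no fall without 27 °C replicate 2 or 3, and 2 rises and 1 fall without 23 °C replicate 1 or 2.

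In starch and sugar metabolism 3 of 14 members rose and 1 fell, 10 of them described, with a median of 0.28. Phosphofructokinase 7, which commits hexose phosphate to glycolysis, had 11.39, 12.04 and 11.26 at 23 °C, against 9.64, 9.13 and 9.61 at 27 °C, a rise of 2.11 ± 0.26 (adjusted p = 0.00493). The bifunctional enzyme that makes and breaks fructose 2,6-bisphosphate, the regulator of sucrose synthesis, rose by 1.57 ± 0.22 (adjusted p = 0.00823). UDP-glucose pyrophosphorylase 2, which makes the glucose donor of sucrose and cell walls, had 14.45, 14.74 and 14.53 at 23 °C, against 13.91, 13.77 and 13.70 at 27 °C, a rise of 0.78 ± 0.12 (adjusted p = 0.0127).

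On the starch side a glucose-1-phosphate adenylyltransferase family member, of the enzyme family that makes the glucose donor of starch, fell by 1.61 ± 0.25 (adjusted p = 0.0149), with 10.84, 10.83 and 10.32 at 23 °C, against 12.43, 12.18 and 12.22 at 27 °C. The starch-phosphorylating enzyme that the study matched to alpha-glucan water dikinase had 12.68, 11.75 and 12.01 at 23 °C, against 13.34, 13.22 and 13.45 at 27 °C, a difference of -1.19 ± 0.23 (adjusted p = 0.0378). This call held in 1 of the 9 leave-one-array fits. The other probe set of the same enzyme gave -0.79 ± 0.28 and was not called. Not of the starch side, and outside the list, a transcript described as an inositol monophosphatase family protein fell by 1.03 ± 0.18 (adjusted p = 0.0244). The study's protein match names it a cytosolic fructose-1,6-bisphosphatase, and its call held in 3 of the 9 leave-one-array fits. The beta-amylase BMY2 gave 0.72 ± 0.43 and 0.88 ± 0.30 on its probe sets, neither called. PFK7 held its call in all 9 leave-one-array fits, while the starch and sugar list kept 1 rise and no fall without 27 °C replicate 2, and 2 rises and no fall without 23 °C replicate 3 or 27 °C replicate 3.

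Among 31 members of organic acid metabolism and respiration, 21 described, 1 rose and 1 fell, with a median of 0.17. The rise was pyruvate orthophosphate dikinase, which turns pyruvate back into phosphoenolpyruvate, with 13.90, 15.25 and 14.71 at 23 °C, against 12.64, 12.85 and 12.96 at 27 °C (1.81 ± 0.28, adjusted p = 0.0163). The fall was the alpha-glucan water dikinase above, whose description also names the dikinase fold. The alternative oxidases, which carry respiration past the phosphorylating complexes, gave 0.66 ± 0.14 for AOX2 and -0.02 ± 0.22 and -0.05 ± 0.31 for AOX3, none called. The list kept no call in the fits without 23 °C replicate 3 or without any 1 of the 3 arrays at 27 °C.

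Phenylalanine ammonia-lyase, the gate of the phenylpropanoid pathway to lignin and flavonoids, rose. Of 16 members of the pathway list, 6 described, 3 rose and 2 fell, with a median of 0.27. PAL1 had 13.89, 13.89 and 13.49 at 23 °C, against 11.53, 11.48 and 10.35 at 27 °C, a rise of 2.64 ± 0.33 (adjusted p = 0.00575). PAL2.1 rose by 2.04 ± 0.35 (adjusted p = 0.0225) on a probe set at 13.98, 13.48 and 13.58 at 23 °C, against 12.00, 11.80 and 11.12 at 27 °C. A brighter probe set of the same symbol gave 0.11 ± 0.09, so the probe sets for PAL2.1 disagreed. Cinnamoyl-CoA reductase 1, the entry to lignin precursors, rose by 1.34 ± 0.26 (adjusted p = 0.0431).

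The falls of this list may not act in its main line. OMT1 is described as O-methyltransferase 1, but the study matched it to an inositol methyltransferase, the maker of the compatible solute ononitol. Which of these it is was not tested. OMT1 had 16.18, 15.96 and 16.11 at 23 °C, against 17.33, 17.25 and 17.04 at 27 °C (-1.12 ± 0.13, adjusted p = 0.00325). The other is an isoprenylcysteine methyltransferase, which modifies lipid-anchored proteins, at -1.23 ± 0.24 (adjusted p = 0.0401). Apart from cinnamoyl-CoA reductase 1, middle and later enzymes were not called. C4H gave 0.32 ± 0.29, 4CL2 1.61 ± 0.37, 4CL3 0.22 ± 0.17, and flavonol synthase FLS1 -0.04 ± 0.40 and -0.21 ± 0.44. PAL1 and OMT1 held their calls in all 9 leave-one-array fits, PAL2.1 in 3, cinnamoyl-CoA reductase 1 in 1 and the isoprenylcysteine methyltransferase in 0. Without any 1 of the 6 arrays compared, the list kept 1 rise and 1 fall.

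In the cell wall list 2 of 25 members rose and 0 fell, 17 described, yet 20 of 25 differences were positive and the median was 0.84. The calls were 2 of the 5 probe sets of CEL12, a glycosyl hydrolase of family 9 that cuts cellulose-type glucan during wall growth, at 1.07 ± 0.17 and 0.99 ± 0.17 (adjusted p = 0.0172 and 0.0221). The probe set given first read 15.31, 15.49 and 15.13 at 23 °C, against 14.55, 14.23 and 13.96 at 27 °C. The other 3 CEL12 probe sets gave 1.28 ± 0.32, 0.99 ± 0.31 and 0.64 ± 0.24 and were not called. Probe sets of the same gene are not independent measurements, and the counts and median of this list hold such repeats. Glucan synthase-like 3, a callose synthase, gave 1.03 ± 0.21 (adjusted p = 0.0528), and the pectin-making galacturonosyltransferase 4 gave 0.94 ± 0.19 and 0.87 ± 0.19. EXP2, a wall-loosening expansin, gave 1.68 ± 0.51 and 0.67 ± 0.37. The list kept no call without 23 °C replicate 1, without 27 °C replicate 2 or without 27 °C replicate 3, and 3 of its members are PAE1 probe sets that the study describes as a proteasome subunit.

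Lipid genes gave 1 rise and 1 fall among 22 members, 16 described, with a median of 0.33. Sterol methyltransferase 1, which sets the balance of membrane sterols, had 12.44, 12.01 and 12.26 at 23 °C, against 11.02, 10.60 and 10.70 at 27 °C (1.47 ± 0.21, adjusted p = 0.0111). A calcium-dependent lipid-binding protein fell by 1.63 ± 0.24 (adjusted p = 0.0113), with 12.48, 11.60 and 12.09 at 23 °C, against 13.86, 13.61 and 13.60 at 27 °C. The fatty acid desaturases, which raise the number of double bonds in membrane lipids, were not called: FAD8.2 gave 0.63 ± 0.19, FAD3C 0.65 ± 0.17, FAD3B -1.38 ± 0.33, FAD2-2 0.33 ± 0.29, FAD2-3 -0.65 ± 0.21 and FAD6.1 0.39 ± 0.14. Their differences ran in both directions. Both calls of the list were lost without 23 °C replicate 3 and without 27 °C replicate 2.

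Among the water channels 2 of 16 members rose and 0 fell, 6 of the 16 described, while 14 of 16 differences were positive and the median was 0.33. PIP2-6, an aquaporin of the plasma membrane, had 13.90, 15.28 and 14.24 at 23 °C, against 12.93, 12.96 and 12.73 at 27 °C (1.60 ± 0.28, adjusted p = 0.0248). PIP2-9 had 14.99, 15.17 and 14.95 at 23 °C, against 14.04, 13.60 and 13.43 at 27 °C (1.34 ± 0.23, adjusted p = 0.0221). At 18 °C they parted, with PIP2-6 at 15.73 ± 0.18 and PIP2-9 at 14.17 ± 0.48 (SD, n = 3). PIP1-6 gave the lowest difference of the list, -0.67 ± 0.31, and was not called. Neither call survived without 23 °C replicate 3, 27 °C replicate 2 or 27 °C replicate 3.

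Of 22 other transporters, 17 described, 6 rose and 2 fell, and the median was 0.91. A MATE transporter that the study matched to an aluminium-activated citrate exporter of soybean had 12.87, 13.05 and 12.51 at 23 °C, against 10.08, 9.54 and 10.16 at 27 °C, a rise of 2.88 ± 0.22 (adjusted p = 0.000363). The metal-nicotianamine transporter YSL3 had 12.21, 12.16 and 12.04 at 23 °C, against 10.75, 10.42 and 10.51 at 27 °C, a rise of 1.57 ± 0.20 (adjusted p = 0.00561). The amino acid permease AAP7, the ABC transporter MRP14 and the potassium channel SKOR rose by 1.51 ± 0.29, 1.46 ± 0.29 and 1.23 ± 0.21 (adjusted p = 0.0379, 0.0495 and 0.0231). MRP14 had a 27 °C mean of 9.29 and reached a mean of 10 through the cooler temperatures.

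An EamA-type carrier, of a family first found among nodule genes of Medicago, climbed at both cooler temperatures. It averaged 14.38 ± 0.24 at 18 °C (SD, n = 3) and read 11.51, 11.41 and 11.58 at 23 °C, against 9.60, 10.41 and 9.37 at 27 °C. The rise at 23 °C over 27 °C was 1.71 ± 0.26 (adjusted p = 0.0127), and 18 °C lay 2.88 ± 0.26 above 23 °C (adjusted p = 0.000714). The falls were a sugar carrier and a MATE protein. The carrier of the major facilitator superfamily, which the study matched to a chloroplast xylose-proton symporter, had 10.72, 10.66 and 11.19 at 23 °C, against 13.78, 13.66 and 13.82 at 27 °C (-2.89 ± 0.19, adjusted p = 0.000246), the lowest adjusted p of the 255 calls. It averaged 12.20 ± 0.19 at 18 °C, between the other temperatures. The MATE protein, matched to the flavonoid carrier Transparent testa 12, differed by -1.85 ± 0.34 (adjusted p = 0.0355). The citrate exporter, YSL3 and the sugar carrier were called in all 9 leave-one-array fits, EamA in 5, SKOR in 4, AAP7 and the falling MATE protein in 1 each and MRP14 in 0, and the list kept 2 rises and 1 fall without 23 °C replicate 3, 27 °C replicate 1 or 27 °C replicate 3.

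**Figure D3:**
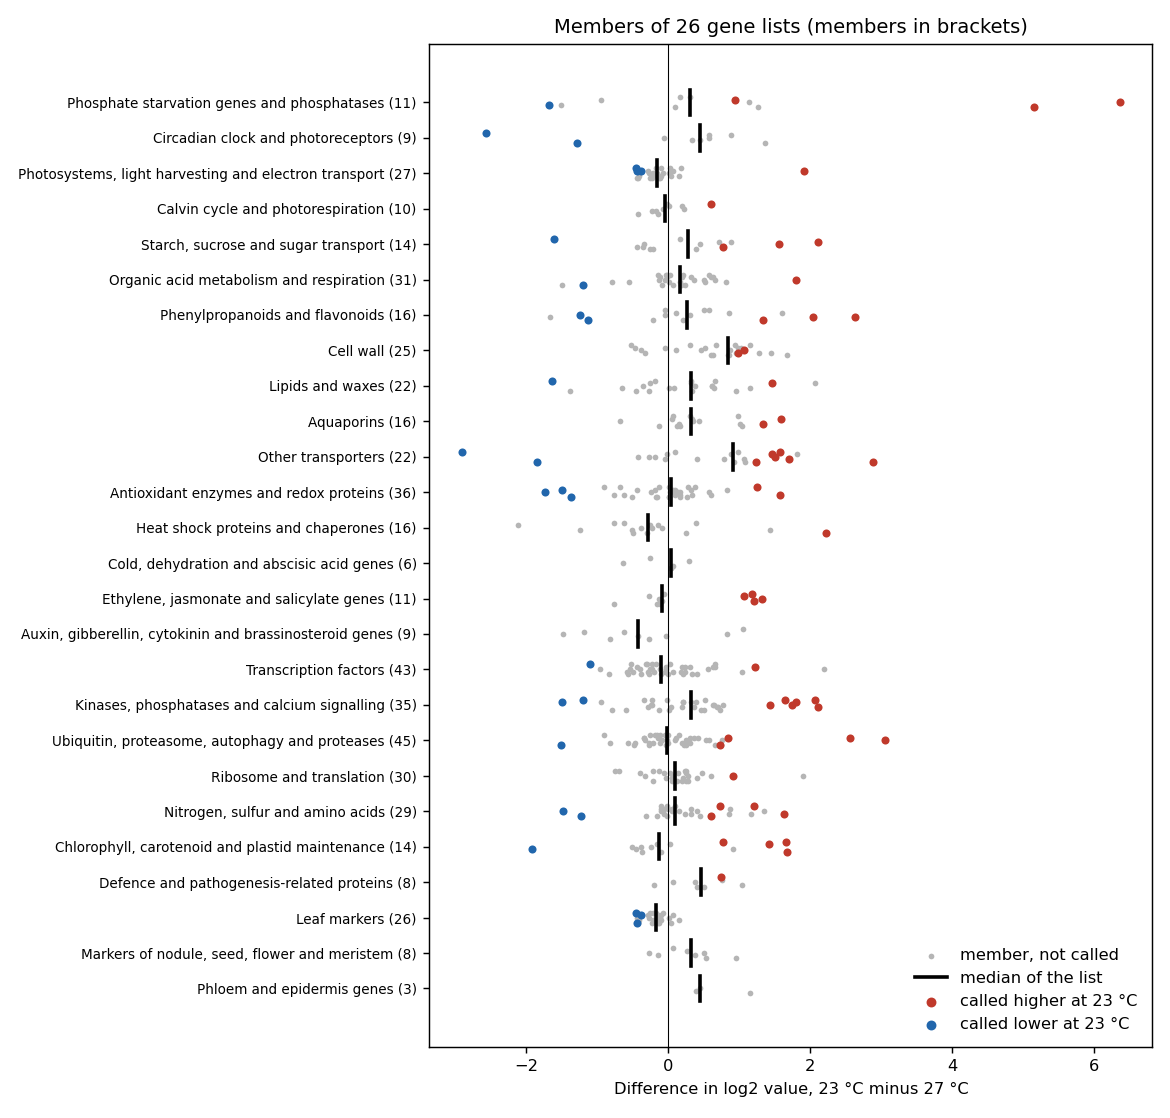
Each point is the fitted log2 difference, 23 °C minus 27 °C, of 1 member of a gene list, with called members coloured and the list median as a bar. Other transporters and cell wall genes have the highest medians, 0.91 and 0.84, and photosystem genes other than NDF1 lie in a narrow band, from -0.45 to 0.19. Members are probe sets, and some genes have several, CEL12 of the cell wall list among them.

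The antioxidant list of 36 members, 20 described, had 2 rises and 3 falls and a median of 0.05. The superoxide dismutases, which remove superoxide, did not share a direction. The copper/zinc enzyme CSD1, of the cytosol in Arabidopsis, had 11.77, 11.66 and 11.39 at 23 °C, against 13.01, 13.03 and 13.25 at 27 °C (-1.49 ± 0.19, adjusted p = 0.00599), and its other probe set gave -1.73 ± 0.29 (adjusted p = 0.0225). The iron enzyme SODB had 15.34, 15.69 and 15.76 at 23 °C, against 14.87, 14.15 and 14.03 at 27 °C (1.25 ± 0.21, adjusted p = 0.0223), while a related probe set, SODB2, gave 0.58 ± 1.26 and the manganese enzyme 0.03 ± 0.15, neither called.

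A member of the peroxidase superfamily also rose, by 1.58 ± 0.28 (adjusted p = 0.0268), and a glyoxalase I family member, which detoxifies methylglyoxal, fell by 1.37 ± 0.26 (adjusted p = 0.0415). Catalases, which break down peroxide, had differences near 0 and were not called, at 0.09 ± 0.07 for CAT1, 0.14 ± 0.07 for catalase 2 and 0.10 ± 0.14 and 0.16 ± 0.11 for CAT4. CSD1 on the probe set given first was called in all 9 leave-one-array fits, and SODB and the other CSD1 probe set in 5 each. Without 23 °C replicate 2 or 27 °C replicate 2 the CSD1 probe set given first was the list's only call.

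Among 16 heat shock proteins and chaperones, 10 described, 1 rose and 0 fell, with a median of -0.28. HSP21, a small heat shock protein of the chloroplast, had 13.84, 14.08 and 13.43 at 23 °C, against 11.62, 11.16 and 11.88 at 27 °C (2.23 ± 0.24, adjusted p = 0.00216) and was called in every leave-one-array fit. The other 15 differences ranged from -2.11 for the small heat shock protein HSP23.9 to 1.43 for 1 probe set of the endoplasmic chaperone BIP4. Of 8 defence genes, 5 described, 1 rose, BAX inhibitor 1, a regulator of cell death, by 0.75 ± 0.14 (adjusted p = 0.033). That call held in 1 of 9 leave-one-array fits, and its other probe set gave 0.51 ± 0.21 without a call.

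The last enzyme of ethylene synthesis rose on each of its 3 probe sets. Among 11 members of the ethylene, jasmonate and salicylate list, 5 described, 4 rose and 0 fell, while the median was -0.08. The ethylene-forming enzyme (ACC oxidase) had 16.33, 16.59 and 16.46 at 23 °C, against 15.31, 15.52 and 15.34 at 27 °C on its brightest probe set, a rise of 1.07 ± 0.11 (adjusted p = 0.00177). The other probe sets rose by 1.19 ± 0.16 and 1.33 ± 0.20 (adjusted p = 0.00823 and 0.0125). These 3 probe sets share a soybean cluster and are not independent measurements. The list kept 2 of its 4 calls without 23 °C replicate 2, 23 °C replicate 3, 27 °C replicate 1 or 27 °C replicate 3.

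SABATH1, a methyltransferase of the family that methylates salicylate and jasmonate, rose by 1.22 ± 0.23 (adjusted p = 0.0379), a call that no leave-one-array fit kept. The jasmonate enzymes AOS1 and AOC6 gave -0.12 ± 0.36 and -0.15 ± 0.20, and the ethylene receptor ETR2 gave -0.08 ± 0.31, none called. No member of the auxin, gibberellin, cytokinin and brassinosteroid list was called (0 of 9, 6 described, median -0.42), where the auxin receptor genes AFB3B and TIR1C gave -0.82 ± 0.21 and -0.27 ± 0.14, with 95% intervals of -1.29 to -0.35 and -0.59 to 0.04.

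The list of cold, dehydration and abscisic acid genes had no call either. Of its 26 probe sets in the deposited table only 6 reached the level that defines these transcripts, 2 of them described. None of the 6 passed, and the median was 0.04. These 6 do not stand for the classical cold and dehydration genes as a class. DREB, a transcription factor of the dehydration and cold response, gave -0.25 ± 0.22 with a 95% interval of -0.73 to 0.23. An aluminium-induced protein gave 0.07 ± 0.16, and RAB2 gave 0.30 ± 0.13 and 0.04 ± 0.22. Whether the aluminium-induced protein or RAB2 has a part in the cold response was not tested. Markers of nodule, seed, flower and meristem (0 of 8) and genes of phloem and epidermis (0 of 3) had no call, with medians of 0.32 and 0.46. The seed maturation symbol PM37 gave 0.51 ± 0.14 and 0.54 ± 0.16, sucrose-proton symporter 1, which loads the phloem, 0.46 ± 0.22, and KCS11, an enzyme of wax synthesis, 1.16 ± 0.26.

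Transcription factors gave 1 rise and 1 fall among 43 members, 12 described, with a median of -0.10. MYB118 had 14.28, 13.72 and 14.10 at 23 °C, against 12.97, 12.64 and 12.80 at 27 °C (1.23 ± 0.17, adjusted p = 0.00796). MYB173, by the study's match, had 12.23, 12.79 and 12.37 at 23 °C, against 13.42, 13.65 and 13.63 at 27 °C (-1.10 ± 0.17, adjusted p = 0.0148). The neighbouring probe sets MYB175 and MYB176 gave -0.83 ± 0.27 and 0.19 ± 0.45 and were not called. MYB118 held its call in all 9 leave-one-array fits, and MYB173 lost it without 23 °C replicate 1, 23 °C replicate 3, 27 °C replicate 2 or 27 °C replicate 3. Beyond the list, an AT-hook DNA-binding protein fell by 1.47 ± 0.20 (adjusted p = 0.00795), with 10.14, 10.02 and 10.03 at 23 °C, against 11.45, 11.64 and 11.51 at 27 °C, and the PHD-finger protein PHD4 by 1.30 ± 0.21 (adjusted p = 0.0173).

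Kinases and calcium signalling had 6 rises and 2 falls among 35 members, 28 described, with a median of 0.32. Of the 6, PFK7 and pyruvate orthophosphate dikinase are the metabolic enzymes above, and the fall of the water dikinase counts here too. An ABC1-type kinase, of a family found in chloroplast lipid droplets, had 15.75, 15.61 and 15.62 at 23 °C, against 13.49, 13.68 and 13.59 at 27 °C (2.07 ± 0.16, adjusted p = 0.000363). CIPK9, a kinase driven by calcium sensors, had 14.93, 15.12 and 14.71 at 23 °C, against 12.99, 13.24 and 13.29 at 27 °C (1.75 ± 0.14, adjusted p = 0.000528). A kinase matched to S6 kinase, which acts on the ribosome, rose by 1.65 ± 0.17, and one matched to the soybean choline kinase GmCK2p by 1.44 ± 0.25 (adjusted p = 0.00177 and 0.0248). The remaining fall was a carbohydrate kinase of the FGGY family, at -1.49 ± 0.22 (adjusted p = 0.011). Without 27 °C replicate 2 or 27 °C replicate 3 the list kept 4 rises and no fall, and it kept 5 calls without 23 °C replicate 3 or 27 °C replicate 1.

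In protein turnover 4 of 45 members rose and 1 fell, 38 described, with a median of -0.01. A RING-finger protein, of the class of ubiquitin ligases, rose on both its probe sets. The brighter had 15.23, 12.91 and 13.34 at 23 °C, against 9.94, 11.20 and 11.19 at 27 °C (3.05 ± 0.56, adjusted p = 0.033), and the other rose by 2.57 ± 0.43 (adjusted p = 0.0208). They share a soybean cluster and are not independent measurements, and their calls held in 2 and 5 of the 9 leave-one-array fits. The dimmer had a 27 °C mean of 8.43 and reached a mean of 10 through the cooler temperatures. The ubiquitin-conjugating enzyme 10 rose by 0.85 ± 0.14 (adjusted p = 0.0225), and FtsH above completes the rises. An F-box protein, which picks targets for ubiquitin, fell by 1.50 ± 0.22 (adjusted p = 0.0113), with 11.39, 11.46 and 11.52 at 23 °C, against 13.34, 12.57 and 12.96 at 27 °C. The subunit of the proteasome core PAA1 was not called, at -0.14 ± 0.24 and -0.02 ± 0.16 on its probe sets. The list kept no call but the fall without 23 °C replicate 3 or 27 °C replicate 2, and no call without 27 °C replicate 3.

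In the ribosome and translation list 1 of 30 members rose and 0 fell, 26 described, and the 95% interval lay within 1 of 0 for 25 of the 30. The rise was an elongation factor of the EF-G type, which moves the ribosome along, at 0.92 ± 0.13 (adjusted p = 0.0084). The median over the list was 0.10.

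Nitrogen, sulfur and amino acid metabolism had 4 rises and 2 falls among 29 members, 20 described, with a median of 0.09. A transcript matched to GMP synthase rose by 1.63 ± 0.31, and ALAAT2 and SABATH1 above make up part of the rest. The GMP synthase transcript had a 27 °C mean of 9.03 and reached a mean of 10 through the cooler temperatures. LSU2, a small protein that sulfur-starved Arabidopsis makes, had 14.62, 14.54 and 14.29 at 23 °C, against 13.69, 13.65 and 13.91 at 27 °C, a rise of 0.73 ± 0.14 (adjusted p = 0.0378). At 18 °C it averaged 12.90 ± 0.11 (SD, n = 3), below both warmer temperatures and -0.85 ± 0.14 from 27 °C (adjusted p = 0.00914). OAS-TL3, a cysteine-making enzyme of sulfur assimilation outside the list, was also highest at 23 °C, with 16.26, 16.33 and 16.05 at 23 °C, against 15.44, 14.42 and 14.77 at 27 °C, and a mean of 14.67 ± 0.35 at 18 °C. It rose by 1.34 ± 0.24 over 27 °C (adjusted p = 0.0279), and 18 °C differed from 23 °C by -1.54 ± 0.24 (adjusted p = 0.0123).

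The falls of this list were dihydrodipicolinate reductase, of lysine synthesis, at -1.48 ± 0.29, and a methyltransferase that the study matched to an rRNA methyltransferase, at -1.23 ± 0.22 (adjusted p = 0.0423 and 0.0313). The LSU2 call was lost in each leave-one-array fit and OAS-TL3 kept its call in 3 of 9. With any 1 of the 6 compared arrays left out, or 18 °C replicate 1, the list kept 1 rise and no fall.

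Outside the lists 34 named transcripts were called, 17 in each direction. The largest rise among them was a haloacid dehalogenase hydrolase matched to a pyrophosphatase, with 12.81, 12.73 and 12.36 at 23 °C, against 10.49, 9.92 and 9.64 at 27 °C (2.62 ± 0.23, adjusted p = 0.000757). It rose by a further 1.99 ± 0.23 at 18 °C over 23 °C (adjusted p = 0.00297). Another hydrolase of this superfamily rose on its x-type and s-type probe sets by 1.98 ± 0.25 and 1.79 ± 0.19. A MazG-type nucleotide pyrophosphohydrolase had 13.03, 13.00 and 12.53 at 23 °C, against 10.97, 10.56 and 10.26 at 27 °C (2.26 ± 0.22, adjusted p = 0.00112). An RCC1-repeat protein had 13.90, 13.57 and 13.52 at 23 °C, against 11.56, 11.44 and 11.38 at 27 °C (2.20 ± 0.16, adjusted p = 0.000363). All of these were called in every leave-one-array fit.

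The cytochrome P450 CYP82C1, an oxidising enzyme of specialised metabolism, rose by 1.66 ± 0.20 (adjusted p = 0.00473), with 12.53, 13.22 and 12.82 at 23 °C, against 11.13, 11.19 and 11.26 at 27 °C. NRP-A, a protein with a development and cell death domain, rose by 1.27 ± 0.21 and again by 1.47 ± 0.21 at 18 °C over 23 °C (adjusted p = 0.0213 and 0.00818). On the other side, a dioxygenase matched to gibberellin 2-beta-dioxygenase, which inactivates gibberellins, had 9.29, 8.53 and 9.14 at 23 °C, against 10.66, 11.02 and 11.76 at 27 °C (-2.16 ± 0.35, adjusted p = 0.0192). Its 23 °C mean was 8.99, so it reached a mean of 10 through the other temperatures. A rhodanese matched to the senescence-associated protein DIN1 had 14.86, 14.15 and 14.65 at 23 °C, against 15.69, 15.92 and 15.86 at 27 °C (-1.27 ± 0.17, adjusted p = 0.00743). A SOUL haem-binding protein, among the brightest transcripts, had 16.27, 16.45 and 16.47 at 23 °C, against 17.04, 17.02 and 17.06 at 27 °C (-0.64 ± 0.08, adjusted p = 0.00588). As in all 255 calls, the 23 °C and 27 °C values of these 3 transcripts did not overlap. HPT1 fell by 1.50 ± 0.28 (adjusted p = 0.0333). An aldolase-type barrel protein, matched to IMP dehydrogenase of guanine nucleotide synthesis, fell by 1.00 ± 0.17 at 23 °C but stood 1.70 ± 0.17 higher at 18 °C than at 23 °C (adjusted p = 0.022 and 0.00116).

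**Figure D4:**
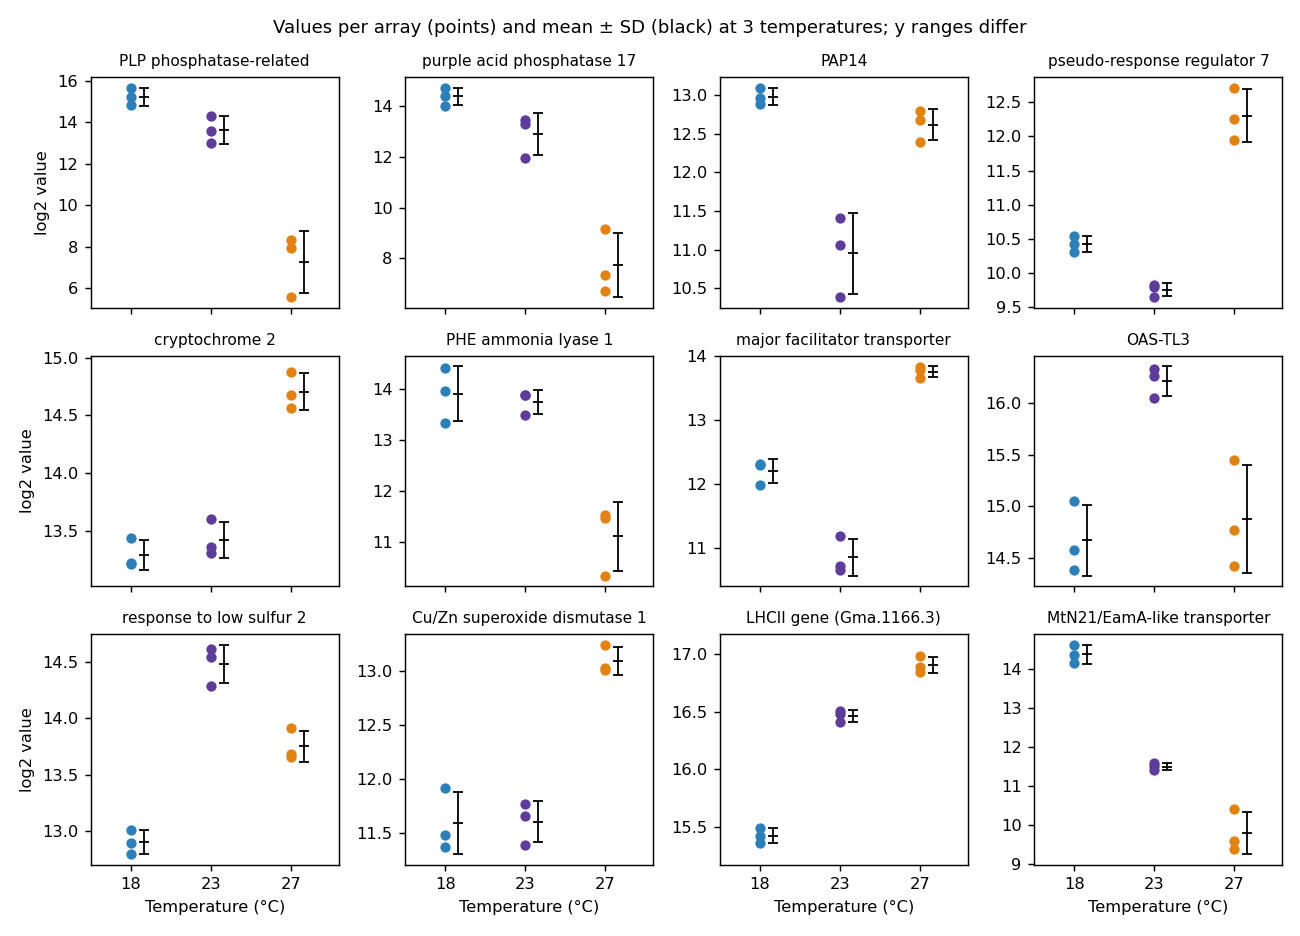
Deposited log2 values of 12 transcripts are plotted against temperature, 18, 23 and 27 °C from left to right, with 1 point per leaflet. Black marks beside the points give the mean ± SD of 3. The phosphatases PLP phosphatase and PAP17 sit high at both cooler temperatures, EamA steps up at each, PAP14 is low at 23 °C only, and OAS-TL3 and LSU2 are highest at 23 °C.

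The 3 temperatures share their arrays, so each comparison is given on its own. At 18 °C PAL1 averaged 13.91 ± 0.54 and NDF1 15.24 ± 0.16 (SD, n = 3), both above their 27 °C leaflets. CHLH averaged 16.17 ± 0.09, phytoene synthase 15.97 ± 0.25, the ABC1-type kinase 15.28 ± 0.35 and HSP21 13.05 ± 0.32 at 18 °C (SD, n = 3). For these 4 the 18 °C mean lay above the 27 °C mean, while LSU2, which had also risen at 23 °C, lay below it. OAS-TL3 differed by -0.21 ± 0.24 between 18 °C and 27 °C and was not called there (adjusted p = 0.805).

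Of the 255 calls 152 had no name in the sources used here, among 6219 unnamed transcripts (2.44%). Probe set Gma.7557.1.S1_at rose, with 11.44, 11.63 and 11.99 at 23 °C, against 8.21, 3.28 and 7.22 at 27 °C (5.45 ± 0.94, adjusted p = 0.0233). Its 27 °C leaflets spread widely, and their mean of 6.24 ± 2.61 (SD, n = 3) lay below the median of all probe sets, not shown to be above background, so the size of this rise is not well set. GmaAffx.92894.1.S1_s_at rose by 3.69 ± 0.66 (adjusted p = 0.0293), with a 27 °C mean of 8.09, close to that median. The calls of these rises held in 4 and 2 of the 9 leave-one-array fits. The falls given next had tighter replicates. Gma.10066.1.S1_at had 9.97, 8.68 and 10.07 at 23 °C, against 13.17, 12.84 and 13.11 at 27 °C (-3.47 ± 0.43, adjusted p = 0.00523), and GmaAffx.72844.1.S1_at had 8.64, 8.37 and 8.47 at 23 °C, against 12.09, 11.36 and 11.89 at 27 °C (-3.29 ± 0.45, adjusted p = 0.00822). Both falls were called in all 9 leave-one-array fits, and both transcripts averaged between the other temperatures at 18 °C, at 10.19 ± 0.77 and 9.78 ± 1.03 (SD, n = 3). GmaAffx.72844.1.S1_at averaged under 10 at 18 °C and at 23 °C, and so reached a mean of 10 through the 27 °C leaflets.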

How the data were processed

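RNA from leaflets was hybridised to Affymetrix Soybean GeneChips, and a genomic DNA array of the same landrace served the authors to keep probes that bind this species. The deposited values are log2 values that the authors made with the RMA algorithm. The authors tried several DNA thresholds. The sources used here do not say which of them gave the deposited table, and give no RMA version, slides or scan dates. The column of the DNA array (1 column) held no values. Differences (23 °C minus 27 °C) were fitted with limma 3.58.1 in R 4.3.3 (lmFit, then eBayes with an intensity trend and robust variance) on 9 arrays, with Benjamini-Hochberg adjustment over 36578 probe sets and a threshold of 0.05. The number of arrays limits the precision. The script was tested on simulated data. Named by rule were the 15 largest named rises and falls called without overlap, every called member of 26 lists, up to 2 narrowest members of a list with no call, the 2 largest unnamed rises and falls, and the pair at the level limit. Other names were added after their values were seen. Transcripts, lists and tests were chosen with earlier results of these data known. Alternatives were another variance prior, a t-test without the authors' filter, centring, quantile normalization, other level limits, the 6 arrays alone, a replicate block and leaving out each array. The study's supplementary tables served for names only.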

Additional observations from a re-analysis of the deposited data

How the results depend on the processing

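The range of the count was wide. No called difference changed sign in any alternative, but this was largely fixed beforehand. In none of the 255 calls did the values of the 2 temperatures overlap, so leaving out 1 array could not change a sign. Several other alternatives used the same group means. Of the 7017 transcripts, 255 were called in the fit reported and 0 with 1 common prior variance or by the t-test without the authors' filter. With the 6 arrays at 23 °C and 27 °C alone 147 were called, and 524 when the fit held only transcripts at the level limit, all 255 among them. Leaving out 1 array gave 85 to 231. At an adjusted p under 0.01 with over 2-fold difference 62 passed, and 0 by that t-test. Over the whole table, where 284 were called, the common prior variance and the t-test called 1 each, the 6 arrays alone 159, and leaving out 1 array gave 96 to 248. At an adjusted p under 0.01 with over 2-fold difference 64 passed, and 0 by the t-test. Centring, quantile normalization and other level limits kept the count between 216 and 269.

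The same 3 plants gave the leaflets of each temperature, but nothing ties a replicate number to a plant, and arrays of the same number correlated weakly in their deviations (r = 0.07, 0.01 and 0.03). The numbers were therefore not taken as pairs, which does not show that the arrays are unpaired. With the replicate block 217 of the 7017 and 230 of all probe sets were called, and with the block and the 6 arrays alone, an alternative added after seeing the data, 35 and 36.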

Other observations

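Among the 29561 probe sets with a mean under 10, 29 (0.0981%) were called, 8 higher and 21 lower at 23 °C. They include WRKY43, a transcription factor, with a difference of 4.83, and on the lower side a thioredoxin at -3.48 and CP12-2, a regulator of the Calvin cycle, at -2.13.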
